A study of Sus scrofa with 16 samples.

Results

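Bile acid handling in the pig small intestine was followed through 8 genes, chosen by symbol from the 25880 genes of the count tables. SLC10A2 (ENSSSCG00000026317) takes bile acids up, FABP6 (ENSSSCG00000017037) binds them in the cell, and SLC51A (ENSSSCG00000011846) and SLC51B (ENSSSCG00000004923) export them. NR1H4 (ENSSSCG00000000875) encodes the bile acid receptor FXR, NR0B2 (ENSSSCG00000003565) is a target of FXR, and ABCC2 (ENSSSCG00000010543) and ABCC3 (ENSSSCG00000017561) encode efflux pumps. All 8 had UMIs (unique molecular identifiers, counted mRNA molecules) in the kept cells of every region.

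Bile acids are made in the liver, help to dissolve dietary fat in the upper intestine and are recovered mainly in the ileum. The carrier of SLC10A2 moves them with sodium across the brush border of enterocytes, the absorptive epithelial cells, FABP6 carries them through the cytosol, and the dimer of SLC51A and SLC51B releases them at the basal side towards the portal blood. Inside the cell they activate FXR, which raises transcription of FABP6, SLC51A, SLC51B, NR0B2 and the hormone gene FGF19, and NR0B2 in turn encodes a nuclear receptor that represses other genes.

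Cells of epithelium released from the gut wall came from mixed-breed female pigs, 7.5 weeks old, with no treatment named. The 4 groups were duodenum beginning at the pylorus (DUOD), jejunum farther down (JEJ), ileum holding Peyer's patches (IPP) and ileum dissected free of them (NoPP). Each region has 4 titles in the labels but 1 pooled count matrix, and cells cannot be assigned to titles. There are thus no replicates, no difference between regions was tested, and all intervals below are exact 95% intervals for counting error alone, which leave variation among animals unmeasured.

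The matrices held 44726845 to 91813234 UMIs each. Barcodes were kept from 1000 UMIs and 500 genes upwards and up to a mitochondrial share of 25%. This kept 718, 986, 3273 and 2084 cells (in the order DUOD, JEJ, IPP, NoPP, as in all lists of 4 values below), at medians of 3646 to 4452 UMIs. Some barcodes were shared between matrices: 121 in NoPP, each 10 times or more deeper in another matrix, were left out, and 135, 6, 21 and 15 of those kept had at least 1000 UMIs in another matrix. Enterocytes were gated by fixed marker genes, none of them a member, which gave 202, 199, 148 and 27 cells. The gated cells differed in depth, with medians of 25639, 4983, 14951 and 17947 UMIs, and in mitochondrial share, with medians of 12.8, 7.81, 17.5 and 14.0%. In every region the enterocyte-gated cells had 17 markers of the enterocyte list detected, which the gate itself favours. Of their 10 leading genes 1, 4, 3 and 3 were of that list and none was a marker of another class. The first of the 10 in DUOD was FABP6, which rested on 1 cell. Their enterocyte marker share stood at medians of 509, 1086, 291 and 265 UMIs per 10000, so the gated cells were not alike between regions. Of the 8 goblet markers measured, 8, 8, 7 and 6 had a UMI in them, summing to 1278, 145, 164 and 97.6 CPM (a gene's UMIs in the summed cells, scaled to a common total). The 16 T or innate lymphoid markers summed to 10.6, 39.5, 94.95 and 76.7 CPM, and 12, 11, 14 and 10 of them had a UMI. The B cell list was at 0 UMIs in DUOD and NoPP. The part of these differences in the results was not tested.

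SLC10A2, the brush border carrier, separated the ileum from the regions above it. Enterocyte-gated cells held 1.80 CPM in DUOD (interval 0.822 to 3.41), 1.85 in JEJ (0.679 to 4.03), 1075 in IPP (1032 to 1118) and 737 in NoPP (658 to 822). Both ileal values lay far above both upper ones, and DUOD and JEJ did not differ beyond counting error. All 9 SLC10A2 UMIs of DUOD lay in 1 cell, and the 6 of JEJ in 3 cells. In the ileum the carrier was broadly detected: 92.6% of IPP and 77.8% of NoPP enterocyte-gated cells had a UMI, and 84.3% and 50% after each cell was thinned to 2000 UMIs, which left out 8 and 3 shallower cells. The ratio over JEJ was 581 for IPP (266 to 1584) and 398 for NoPP (181 to 1093), and IPP exceeded NoPP 1.46-fold (1.30 to 1.65).

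FABP6 had the widest span of the 8. Its level was 118 CPM in DUOD (108 to 127), 0.308 in JEJ (0.00781 to 1.72), 21588 in IPP (21397 to 21780) and 68151 in NoPP (67373 to 68935). FABP6 alone thus made up 2.16% of the UMIs of IPP enterocyte-gated cells and 6.82% of those of NoPP. The duodenal value came almost whole from 1 cell, which held 586 of the 589 UMIs, and without it DUOD was at 0.600 CPM. That cell had 11754 UMIs, of which 9 were SLC10A2, 4 SLC51A and 9 SLC51B, and its barcode also had 488 UMIs in NoPP. JEJ had 1 FABP6 UMI in all its enterocyte-gated cells. The ratio of IPP to JEJ on that 1 UMI was 70015 (12566 to 2.77e+06). A single JEJ epithelial cell outside the enterocyte gate held 28 more. Leaving both cells aside, DUOD and JEJ enterocyte-gated cells had 3 and 1 FABP6 UMIs, so FABP6 above the limit of 3 UMIs was not detectable there at this depth.

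Free RNA in the droplets gives a background for these levels. T or innate lymphoid-gated cells, which should lack FABP6, held it at 2.60, 0.475, 155 and 132 CPM. In the ileum 45.1% of these lymphocytes in IPP and 37.1% in NoPP had a FABP6 UMI (26.6% and 22.6% at 2000 UMIs), at a median depth of 3595 and 3519 UMIs. A single FABP6 UMI is therefore no sign of an ileal enterocyte, and the levels were compared instead: enterocyte-gated cells stood 139-fold above lymphocytes in IPP and 515-fold in NoPP. Barcodes with under 100 UMIs held FABP6 at 197, 92.3, 5006 and 6343 CPM. FABP6 UMIs per SLC10A2 UMI were 20.1 in enterocyte-gated (19.3 to 20.9), 22.8 in T-gated (16.5 to 32.4) and 20.4 in B-gated cells of IPP (14.6 to 29.4). In NoPP they were 92.5 in enterocyte-gated (82.8 to 104) and 66.2 in T-gated cells (38.5 to 125). For this pair of genes the intervals of lymphocytes and enterocytes of the same matrix overlapped. Per SLC51A UMI they did not in NoPP, at 61.5 FABP6 UMIs in T-gated (36.5 to 113) and 143 in enterocyte-gated cells (125 to 165), while in IPP they did, at 25.5 (18.1 to 37.0) and 31.99 (30.4 to 33.7). SLC10A2 itself stood at 6.81 CPM in IPP and 2.00 in NoPP lymphocytes and at 0 UMIs in those of DUOD and JEJ.

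**Figure D1:**
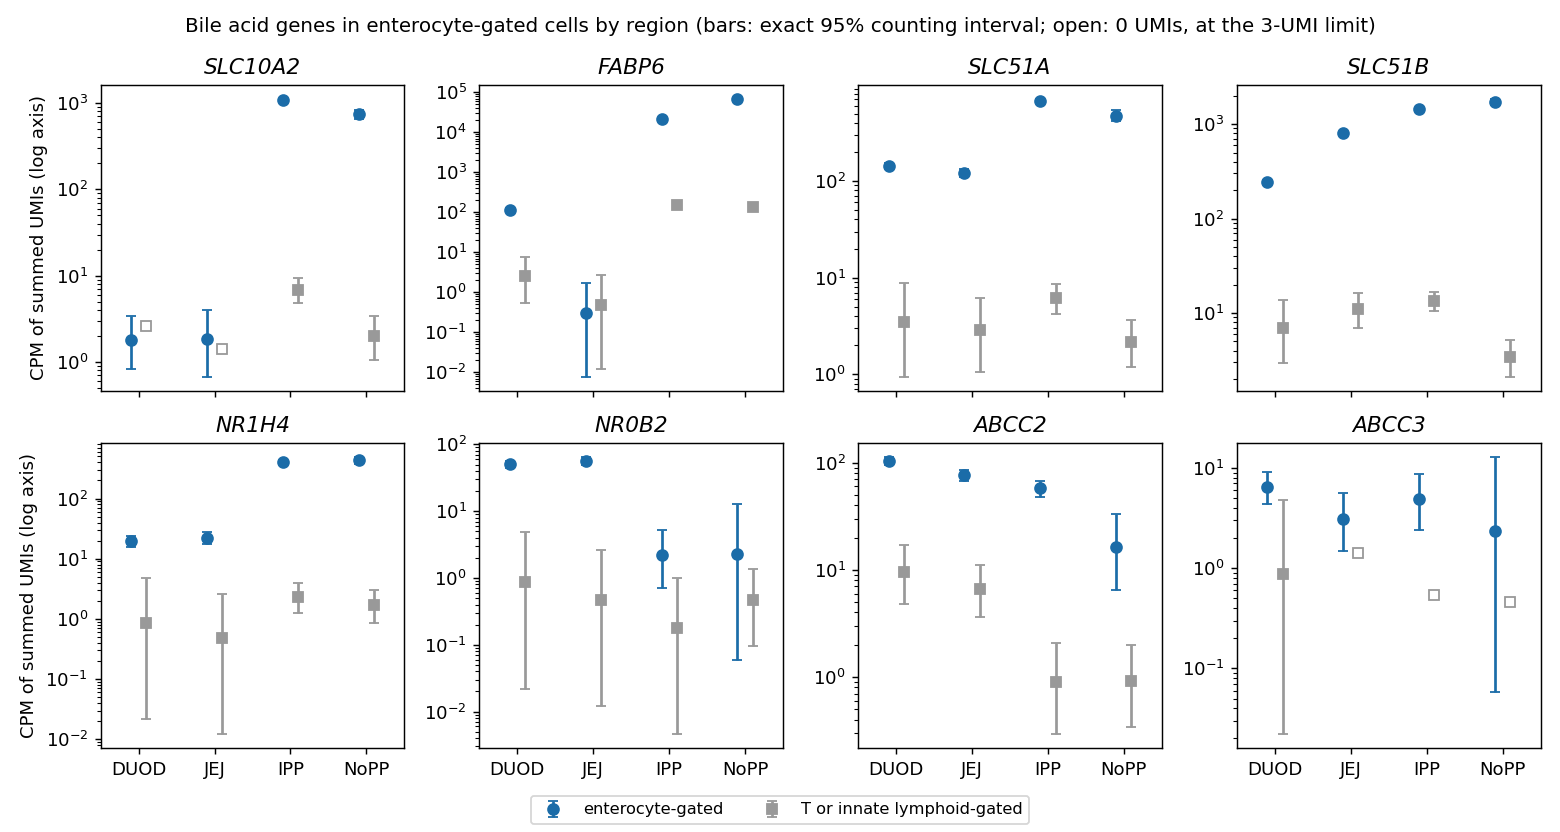
Level of each bile acid gene (CPM of summed UMIs, log axis) in enterocyte-gated cells (circles) and T or innate lymphoid-gated cells (squares) of the 4 regions, with exact 95% counting intervals; open symbols are genes with 0 UMIs, drawn at the limit of 3 UMIs. SLC10A2, FABP6, SLC51A, SLC51B and NR1H4 sit highest in both ileal regions, NR0B2 sits lowest there, and the duodenal FABP6 point rests on 1 cell.

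The exporter subunits did not share the sharp boundary of the uptake side. SLC51A, the larger subunit, stood at 142 CPM in DUOD (132 to 153), 122 in JEJ (110 to 134), 675 in IPP (641 to 710) and 476 in NoPP (413 to 546). The order was IPP, NoPP, DUOD, JEJ, with intervals that did not meet apart from those of DUOD and JEJ. SLC51B, the small subunit, stood at 243 CPM in DUOD (230 to 257), 798 in JEJ (768 to 830), 1437 in IPP (1388 to 1487) and 1722 in NoPP (1600 to 1850). Here JEJ exceeded DUOD and both ileal regions exceeded JEJ. The step from DUOD to JEJ, 3.28-fold (3.06 to 3.51), was larger than that from JEJ to NoPP, 2.16-fold (1.99 to 2.34). SLC51A showed the opposite pattern, 0.857-fold from DUOD to JEJ (0.756 to 0.970) and 3.91-fold from JEJ to NoPP (3.29 to 4.64). The subunits were thus not in step along the upper intestine: SLC51B was higher in JEJ than in DUOD where SLC51A, SLC10A2 and NR1H4 were not. Both were common in duodenal and jejunal cells, with a SLC51B UMI in 85.6% of DUOD and 83.9% of JEJ enterocyte-gated cells and a SLC51A UMI in 77.2% and 49.7%. Lymphocytes of the same matrices had SLC51B in 2.06% and 3.99% and SLC51A in 1.18% and 1.09%, at median depths of 2883 and 3568 UMIs.

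NR1H4, the receptor, was ileal as well, though present throughout. It stood at 19.6 CPM in DUOD (15.9 to 23.8), 22.5 in JEJ (17.6 to 28.3), 404 in IPP (378 to 431) and 429.9 in NoPP (370.2 to 496). The values of DUOD and JEJ overlapped, as did those of IPP and NoPP, and the ileum exceeded JEJ 17.95-fold in IPP (14.1 to 23.1) and 19.1-fold in NoPP (14.5 to 25.4). Cells with an NR1H4 UMI made up 29.7, 26.1, 93.2 and 92.6% of the enterocyte-gated cells, and 5, 5.30, 60 and 66.7% at 2000 UMIs.

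NR0B2, the FXR target, ran the other way in enterocytes. Its level was 50.7 CPM in DUOD (44.7 to 57.3), 56.7 in JEJ (48.8 to 65.5), 2.21 in IPP (0.717 to 5.15) and 2.32 in NoPP (0.0588 to 12.9). DUOD and JEJ differed by less than counting error, 1.12-fold (0.920 to 1.36), and the ileal values rested on 5 UMIs in IPP and 1 in NoPP. NR0B2 was 25.7-fold lower in IPP than in JEJ (10.8 to 80.1) and 24.4-fold lower in NoPP (4.33 to 970 on the 1 UMI). Thus, where the receptor and its other targets FABP6, SLC51A and SLC51B were high, this target was scarce. Lymphocytes of the ileal matrices held NR0B2 at 0.179 CPM in IPP and 0.461 in NoPP. Barcodes with under 100 UMIs held it at 11.4, 32.5, 1.97 and 8.08 CPM. The ileal enterocyte-gated cells were thus near that level in IPP and, on 1 UMI, under it in NoPP. The part of free RNA in these ileal values was not tested. Among enterocyte-gated cells, 51.5, 39.7, 2.70 and 3.70% had an NR0B2 UMI.

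ABCC2, a brush border pump for conjugated bile acids and other organic anions, was highest in DUOD. It stood at 104 CPM in DUOD (95.7 to 114), 76.2 in JEJ (67.0 to 86.3), 57.4 in IPP (48.0 to 68.2) and 16.3 in NoPP (6.54 to 33.5). Barcodes with under 100 UMIs held it at 42.9, 140, 19.5 and 32.3 CPM, above the enterocyte-gated cells in JEJ and NoPP. The ratio of JEJ to DUOD was 0.729 (0.624 to 0.850) and that of IPP to JEJ 0.754 (0.605 to 0.936), both short of 2-fold, while NoPP lay 4.68-fold under JEJ (2.24 to 11.8) on 7 UMIs. ABCC3, a pump of the basal side, was scarce, with 32, 10, 11 and 1 UMIs or 6.39, 3.08, 4.86 and 2.32 CPM. Its intervals overlapped in neighbouring regions, and 78 UMIs over all kept cells are too few to order them.

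The members were then set against all genes of the same comparison, counting a gene as apart when its ratio was at least 2-fold with an interval that excluded 1, among genes with at least 5 CPM in either region. From DUOD to JEJ 1 of 7 members counted was higher (SLC51B; 9.58% of 7857 genes were) and 1 lower (FABP6, on the duodenal cell above; 10.8%). From JEJ to NoPP 5 of 7 were higher (FABP6, SLC10A2, SLC51A, SLC51B and NR1H4; 8.82% of 7860 genes) and 2 lower (NR0B2 and ABCC2; 7.9%). From JEJ to IPP 4 of 7 were higher (FABP6, SLC10A2, SLC51A and NR1H4; 10.6% of 7849 genes) and 1 lower (NR0B2; 14.5%), with SLC51B at 1.80-fold (1.71 to 1.90). The comparisons of NoPP and IPP share the JEJ cells. The median log2 ratio of the members was 1.97 for NoPP over JEJ and 2.47 for IPP over JEJ, beside -0.05 and -0.14 over all genes, and -0.22 for JEJ over DUOD beside 0.04. The members were chosen by name for their part in bile acid handling, with earlier results of these data known, so the counts are a description.

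Of the members counted, FABP6 and ABCC2 were apart by at least 2-fold between the ileal regions. IPP lay under NoPP for FABP6, 3.16-fold (3.11 to 3.20), and over it for ABCC2, 3.53-fold (1.67 to 8.95), 1 member lower and 1 higher of 6, beside 3.84% and 1.87% of 7659 genes. SLC51A at 1.42-fold (1.22 to 1.65), SLC51B at 0.835-fold (0.770 to 0.905) and NR1H4 at 0.940-fold (0.802 to 1.11) stayed within 2-fold, and the members' median log2 ratio was 0.21 beside -0.07 over all genes. The NoPP values rest on 27 cells, in which 1 cell held 12.9% of the FABP6 UMIs.

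A few settings turned these results. With a mitochondrial limit of 10% only 12 IPP and 5 NoPP enterocyte-gated cells were left. SLC51A and SLC51B then no longer exceeded JEJ in NoPP (log2 ratios -0.065 and -0.78), while FABP6 and NR1H4 still did (15.55 and 4.25). SLC10A2 in NoPP was also no longer counted as 2-fold over JEJ, at a log2 ratio of 4.33 from 0 UMIs in JEJ. In IPP FABP6 (15.13), SLC51A (3.17), SLC51B (1.41) and NR1H4 (3.97) exceeded JEJ at this limit, and SLC10A2 did by at least 7.97, from 0 UMIs in JEJ. NR0B2 in both ileal regions and ABCC2 in NoPP had 0 UMIs at this limit, so the place of both in NoPP could not be read. From JEJ to IPP the count of lower members stayed at 1. Between JEJ and DUOD NR0B2 then came to a log2 ratio of 1.17 (0.16 otherwise). Between IPP and NoPP, FABP6 then came to -0.42, within 2-fold, and SLC10A2 (3.64), SLC51A (3.24) and SLC51B (2.19) were higher in IPP. SLC51B in NoPP also came under 2-fold over JEJ with a mitochondrial limit of 40% (log2 ratio 0.92), with the mean of the cells' own CPM (0.88) and with the shared barcodes kept (0.70). With the shared barcodes kept, ABCC2 in NoPP came to -0.92 and was no longer 2-fold under JEJ. Of the 202 DUOD enterocyte-gated cells 110 had barcodes with at least 1000 UMIs in another matrix; without them, a setting chosen after seeing the data, SLC51B stayed higher in JEJ (log2 ratio 1.47 beside 1.71) and NR0B2 stayed level with it (0.28 beside 0.16).

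A list of 53 further genes of bile acid transport, sensing, synthesis and modification, of which 45 were measured, was counted in the same enterocyte-gated cells. From DUOD to JEJ 7 of 26 counted were higher and 3 lower (9.58% and 10.8% of all genes). From JEJ to NoPP 3 of 25 were higher and 6 lower (8.82% and 7.9%), and from JEJ to IPP 9 of 27 higher and 6 lower (10.6% and 14.5%). Between IPP and NoPP 0 of 23 were apart in either direction (1.87% and 3.84%). The list's median log2 ratios in that order were 0.56, -0.34, 0.12 and 0.24, beside 0.04, -0.05, -0.14 and -0.07 over all genes. The list thus had members apart in both directions in each comparison with JEJ.

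Among the transcription factors of the list, GATA4, which holds ileal genes down in the upper intestine of the mouse, stood at 66.1 CPM in DUOD and 77.1 in JEJ and had 0 UMIs in both ileal regions. It was at least 58.2-fold lower in IPP than in JEJ and at least 11.1-fold lower in NoPP, counted from a floor of 3 UMIs. CDX2, a factor of intestinal identity, stood at 52.5, 85.7, 193 and 202 CPM, 2.25-fold higher in IPP than in JEJ (1.93 to 2.63) and 2.36-fold in NoPP (1.83 to 3.01). MAF was at 27.9, 117, 280 and 237 CPM, higher in JEJ than in DUOD 4.18-fold (3.44 to 5.11) and in the ileum than in JEJ 2.39-fold in IPP (2.10 to 2.72) and 2.03-fold in NoPP (1.61 to 2.53). CDX2 and MAF were thus higher in IPP than in JEJ, as the uptake genes were, and GATA4 was lower. From DUOD to JEJ, where MAF was also higher, SLC10A2 was at 1.03-fold (0.302 to 3.24). Any link between these factors and the members was not tested. HNF4A, a factor of enterocyte genes in general, stood at 86.05, 86.03, 112 and 137 CPM and stayed within 2-fold.

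Among other receptors of bile acids and steroids, VDR, the vitamin D receptor, stood at 68.9, 122, 50.8 and 48.8 CPM and was 2.40-fold lower in IPP than in JEJ (1.94 to 2.98) and 2.50-fold lower in NoPP (1.61 to 4.08). NR1I3, a xenobiotic sensor, peaked in JEJ at 36.7 CPM, against 4.99 in DUOD, 1.77 in IPP and 0 UMIs in NoPP. RXRG, a partner of nuclear receptors, stood at 0, 0.617, 6.18 and 4.65 CPM on 0, 2, 14 and 2 UMIs, and IPP and NoPP did not differ beyond counting error. RXRA, the partner of FXR, stayed within 2-fold at 76.7, 46.6, 85.2 and 72.0 CPM.

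The hormone arm was followed up to its gene. FGF19, the ileal hormone that FXR induces and that slows bile acid synthesis in the liver, had 0 UMIs in all kept cells, which allows up to 1.32 CPM in IPP and 6.97 CPM in NoPP enterocyte-gated cells at 3 UMIs. MALRD1, which raises output of the mouse counterpart of FGF19, stood at 8.19, 19.7, 111 and 79.0 CPM, 5.62-fold higher in IPP than in JEJ (4.25 to 7.51) and 4.00-fold in NoPP (2.56 to 6.16). KLB, the co-receptor for FGF19, had 35 UMIs in JEJ (10.8 CPM), 2 in NoPP and 0 in DUOD and IPP, and its receptor FGFR4 had 17, 5, 16 and 2 UMIs from DUOD to NoPP.

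Of the remaining carriers and enzymes, ABCG2, a brush border pump, stood at 124, 160, 366 and 311 CPM and was 2.29-fold higher in IPP than in JEJ (2.05 to 2.56), while NoPP was at 1.95-fold (1.60 to 2.36). SLCO2A1, a prostaglandin carrier, was at 54.3, 4.93, 18.5 and 6.97 CPM. ABCC1, an efflux pump of many tissues, had 38, 0, 4 and 1 UMIs. Of the modifying enzymes, UGT2B31, which attaches glucuronic acid, was at 31.3, 215, 105 and 125 CPM, and CYP3A39, an oxidising enzyme, at 112, 170, 106 and 60.4 CPM. Genes of side-chain and ring steps were low, with ACOX2 at 44.1, 25.3, 13.7 and 9.29 CPM, HSD3B7 at 23.4, 8.33, 17.7 and 4.65, and SLC27A2 at 2.20, 13.9, 0 and 2.32. CYP7A1, which starts bile acid synthesis in the liver, had 0 UMIs in all kept cells.

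The members were next followed across gated epithelial and immune classes. Among the enterocyte, BEST4, goblet, enteroendocrine, T and B gates with at least 20 cells, 8, 6, 7 and 5 members were highest in enterocyte-gated cells. In DUOD 2 of the 8, FABP6 and SLC10A2, rested on the 1 cell described above, and the count was 6, without these 2, at a mitochondrial limit of 10% and at 2 times the enterocyte marker share. Some places were near ties. NR0B2 in JEJ stood at 56.7 CPM beside 56.4 in goblet-gated cells. In IPP ABCC2 stood at 57.4 CPM beside 51.0 in enteroendocrine-gated cells, and ABCC3 at 4.86 beside 4.43, on 11 and 2 UMIs. At a mitochondrial limit of 40% NR0B2 in JEJ and ABCC2 in IPP were highest in these other classes, and the counts were 5 and 6. Outside these gates FABP6 was higher in other epithelial cells of JEJ, on the 1 cell with 28 UMIs, ABCC3 in 21 myeloid-gated cells of IPP, at 9.13 CPM on 2 UMIs, and NR0B2 in 21 cells of JEJ with neither lineage, at 88.96 CPM on 3 UMIs. In IPP the 6 BEST4-gated cells, too few for this count, held more FABP6, at 49499 CPM or 2.29-fold over enterocyte-gated cells (2.22 to 2.37). Without their top cell they stood at 25646 CPM, while the 8 of NoPP were at 521 CPM. The enterocyte gate held 93.2, 87.2, 78.1 and 71.7% of the SLC51A UMIs of all kept cells, and 80.1% and 70.8% of the SLC10A2 UMIs in IPP and NoPP. The exceptions in JEJ rested on few UMIs, FABP6 with 1 UMI each in T-gated and enterocyte-gated cells and ABCC3 with 3 in BEST4-gated cells. NR0B2 was highest in goblet-gated cells in both ileal regions, and ABCC2 and ABCC3 in enteroendocrine-gated cells in NoPP, ABCC3 on 2 UMIs.

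In goblet-gated cells, which secrete mucus, 5 of 7 members counted were lower than in enterocyte-gated cells of IPP (9.76% of 8295 genes were) and 1 higher (NR0B2; 19.2%). In NoPP 6 of 7 were lower (9.35% of 8901 genes) and 1 higher (NR0B2; 15.9%), and in JEJ 4 of 5 lower (9.61% of 8167 genes) and 0 higher (12.6%). In enteroendocrine-gated cells, which make hormones, 5 of 7 were lower in DUOD (21.1% of 8807 genes), 4 of 5 in JEJ (11.5% of 9139), 5 of 7 in IPP (12% of 8822) and 5 of 7 in NoPP (9.9% of 8978). Of the 5 in DUOD, FABP6 rested on the 1 duodenal cell with 586 UMIs. Higher there were 0 members in DUOD (20%) and in JEJ (21.8%), NR0B2 in IPP (24.1%) and ABCC2 in NoPP (19.3%). The median log2 ratio of the members was -1.72 and -3.91 in IPP goblet-gated and enteroendocrine-gated cells and -3.47 and -4.98 in those of NoPP, beside medians over all genes of 0.19, 0.36, 0.31 and 0.43. The enterocyte gate holds enterocyte markers by construction, and the goblet and enteroendocrine gates do not.

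FABP6 in ileal goblet-gated cells came mostly from a few cells, and the carrier was lower there than in enterocytes. SLC10A2 was at 258 CPM in the 46 of IPP (225 to 294), 4.17-fold under enterocyte-gated cells, and at 50.2 CPM in the 42 of NoPP (33.6 to 72.0), 14.7-fold under them. FABP6 was at 12095 and 6141 CPM, but the 5 cells with most FABP6 held 94.4% of these UMIs in IPP and 93.6% in NoPP, and the median goblet-gated cell had 1.89 and 2.60 FABP6 UMIs per 10000. The 18 goblet-gated IPP cells with SLC10A2 had a median of 68.1 enterocyte marker UMIs per 10000, against 8.25 in the 28 without it. SLC10A2 and enterocyte markers thus went together within the goblet gate, and the part of doublets in this was not tested. In the enteroendocrine gate of IPP 612 of the 650 FABP6 UMIs lay in 1 cell, and in that of NoPP FABP6 was at 154 CPM (118 to 197), beside 132 in lymphocytes.

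In the ileum NR0B2 was higher in goblet-gated cells than in enterocytes. In IPP it stood at 51.8 CPM in goblet-gated cells (37.6 to 69.5; 44 UMIs in 24 of 46 cells), 19.9 in enteroendocrine-gated (9.12 to 37.8; 9 UMIs in 9 of 32 cells) and 2.21 in enterocyte-gated cells. In NoPP the same classes stood at 20.8 (10.7 to 36.3; 12 UMIs in 8 of 42 cells), 17.3 (6.97 to 35.7; 7 UMIs) and 2.32 CPM. Both secretory classes lay above the enterocytes in both ileal regions, 23.4-fold for goblet-gated cells in IPP (9.32 to 75.8) and 8.93-fold in NoPP (1.32 to 382), and 9.03-fold (2.72 to 34.3) and 7.46-fold (0.959 to 336) for enteroendocrine-gated cells, the last with an interval that includes 1. In IPP 14 of the 24 goblet-gated cells with NR0B2 had no SLC10A2 UMI, and 28 of the 44 NR0B2 UMIs lay in such cells. Jejunal goblet-gated cells were at 56.4 CPM (36.1 to 83.9), level with the jejunal enterocytes at 0.993-fold (0.621 to 1.52), so the goblet level in JEJ and IPP overlapped while that of enterocytes did not. Enterocyte-gated cells held 94.1, 77.6, 7.35 and 4.17% of all NR0B2 UMIs.

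**Figure D2:**
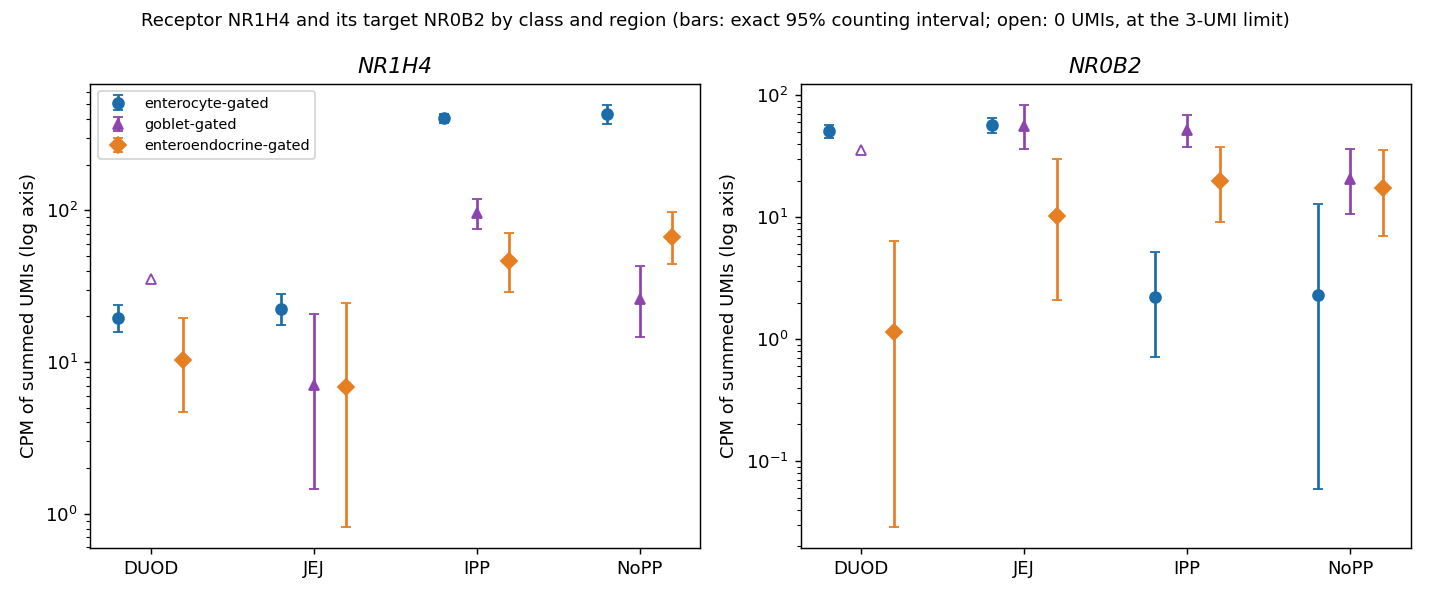
Level of the receptor gene NR1H4 (left) and its target NR0B2 (right), as CPM of summed UMIs on a log axis, in enterocyte-, goblet- and enteroendocrine-gated cells of the 4 regions, with exact 95% counting intervals; open symbols are 0 UMIs at the 3-UMI limit (DUOD has 4 goblet-gated cells). Enterocyte NR1H4 is high in both ileal regions, and enterocyte NR0B2 is at 50.7 and 56.7 CPM above the ileum and at 2.21 and 2.32 CPM in it, while the filled goblet points lie between 20.8 and 56.4 CPM.

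The receptor itself was also present in enteroendocrine-gated cells of the ileum. NR1H4 stood there at 46.5 CPM in IPP (28.8 to 71.1) and 66.9 in NoPP (44.1 to 97.3), with a UMI in 43.8% of 32 and 48.6% of 37 cells. Its most NR1H4-rich cell had 3 UMIs in IPP and 2 in NoPP, so no single cell made the level. Lymphocytes were at 2.33 and 1.69 CPM, with a UMI in 0.898% and 0.659% of cells. Goblet-gated cells stood at 95.3 CPM in IPP and 25.9 in NoPP. ABCC2 in IPP enteroendocrine-gated cells was at 51.0 CPM (32.3 to 76.5), 0.887-fold of enterocytes (0.543 to 1.39), and in NoPP it was higher there, 44.6 against 16.3 CPM or 2.74-fold (1.09 to 7.76).

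**Figure D3:**
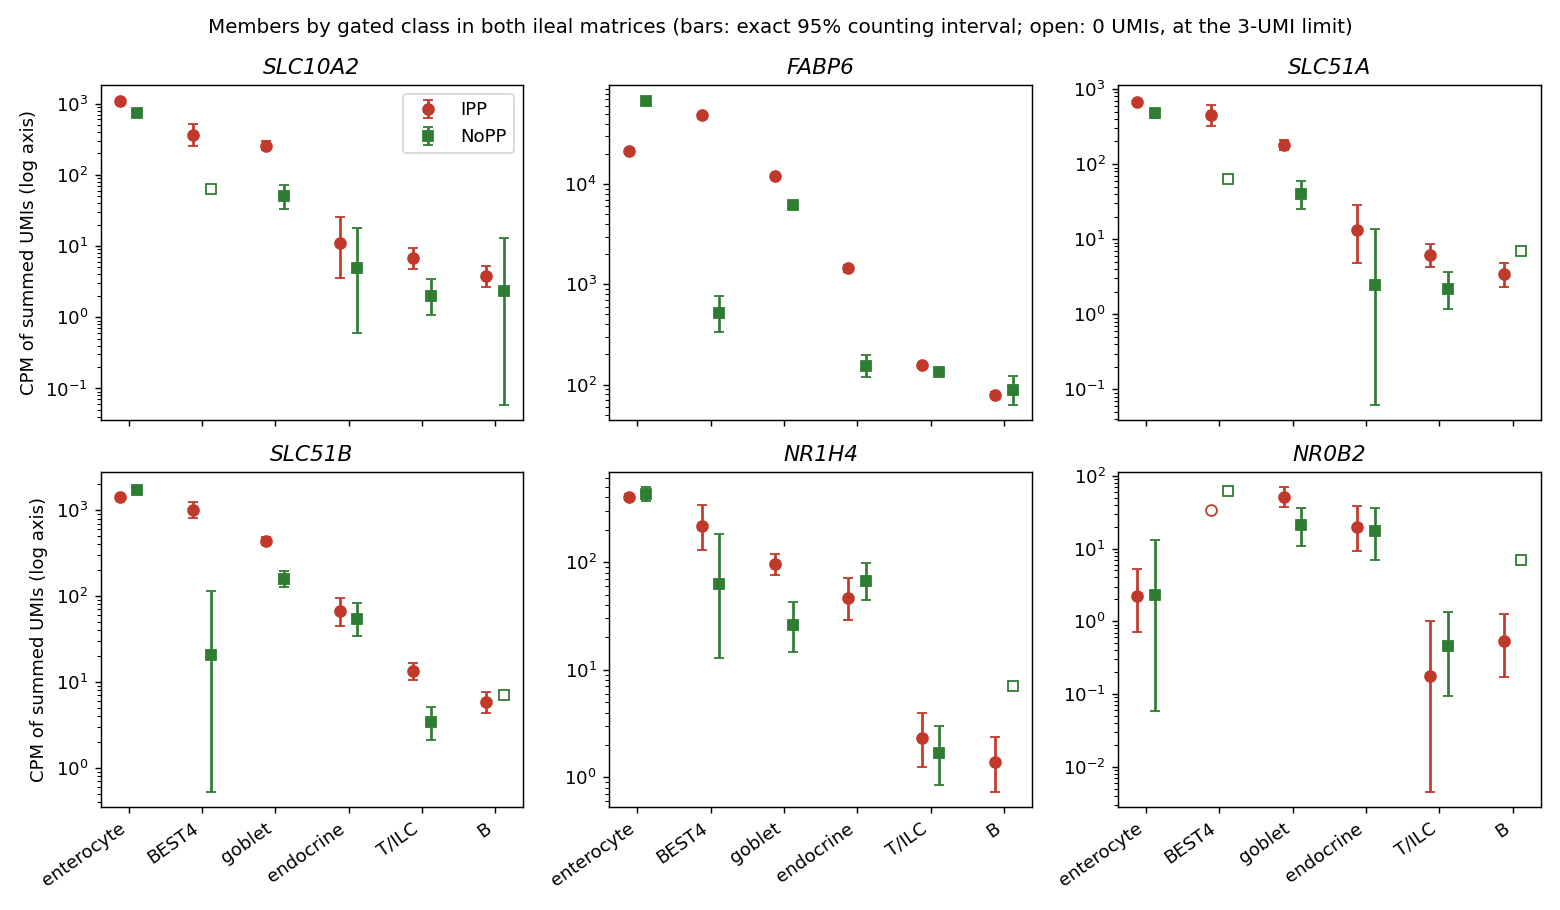
Level of 6 members (CPM of summed UMIs, log axis) by gated class in IPP (circles) and NoPP (squares), with exact 95% counting intervals; open symbols are 0 UMIs at the 3-UMI limit. SLC10A2, SLC51A, SLC51B and NR1H4 are highest in enterocyte-gated cells in both regions, and filled NR0B2 points are highest in goblet-gated cells. FABP6 in IPP is highest in the 6 BEST4-gated cells, at 49499 CPM, of which 60.9% lies in 1 cell, while the 8 of NoPP are at 521 CPM.

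Within single ileal enterocytes the members were compared after each cell was thinned to 5000 UMIs, which kept 131 of 148 cells in IPP and 22 of 27 in NoPP. Most of these cells carried the whole route: 92 of the 131 IPP cells and 15 of the 22 NoPP cells had SLC10A2, FABP6, SLC51A, SLC51B and NR1H4 together. The share depends on depth, since in IPP 38 of 140 cells did so at 2000 UMIs and 122 of 148 unthinned, and free FABP6 RNA is counted in it. All 8 members were found together in 0 cells at any of these depths.

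FABP6 varied from cell to cell by far more than counting gives. In IPP its UMIs per 5000 ran from 0 to 662 with a median of 30 and quartiles of 3 and 153, and in NoPP from 16 to 827 with a median of 353.5 and quartiles of 145 and 433. The IPP cells were spread over the whole range, 38 with at most 5 FABP6 UMIs and 43 with at least 100, whereas in NoPP 18 of 22 had at least 100 and the lowest had 16. The coefficient of variation of FABP6 in IPP was 1.48, beside 0.0994 from counting alone. For SLC10A2 it was 0.618 beside 0.447, for SLC51A 0.622 beside 0.549, for SLC51B 0.497 beside 0.377 and for NR1H4 0.702 beside 0.678. In NoPP it was 0.661 beside 0.0548 for FABP6, 0.692 beside 0.549 for SLC10A2, 0.721 beside 0.663 for SLC51A, 0.406 beside 0.322 for SLC51B and 0.860 beside 0.793 for NR1H4. The transporters and the receptor thus varied closer to what counting gives than FABP6 did in both regions. Only in IPP was the coefficient itself highest for FABP6 among these 5 genes. FABP6 averaged 101 and 333.5 UMIs per 5000 and the others at most 9.64, where counting error covers much of the spread. Whether the others vary less between cells than FABP6 therefore cannot be read from these coefficients.

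Cells low in FABP6 still had the carrier and both exporter subunits. Of the 38 IPP cells with at most 5 FABP6 UMIs, 37 had SLC10A2, 38 SLC51A, 38 SLC51B and 29 NR1H4. Their median SLC10A2 was 4.5 UMIs per 5000, beside 6 in the 50 cells with 6 to 99 FABP6 UMIs and 3 in the 43 with at least 100. Median SLC51B was 5.5, 6 and 8 in the same order, and median NR1H4 1, 2 and 2. Cells with the carrier and the exporter but little FABP6 were thus part of the IPP sample, where lymphocytes give a FABP6 background of 155 CPM, and the 22 NoPP cells held none under 16 FABP6 UMIs.

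**Figure D4:**
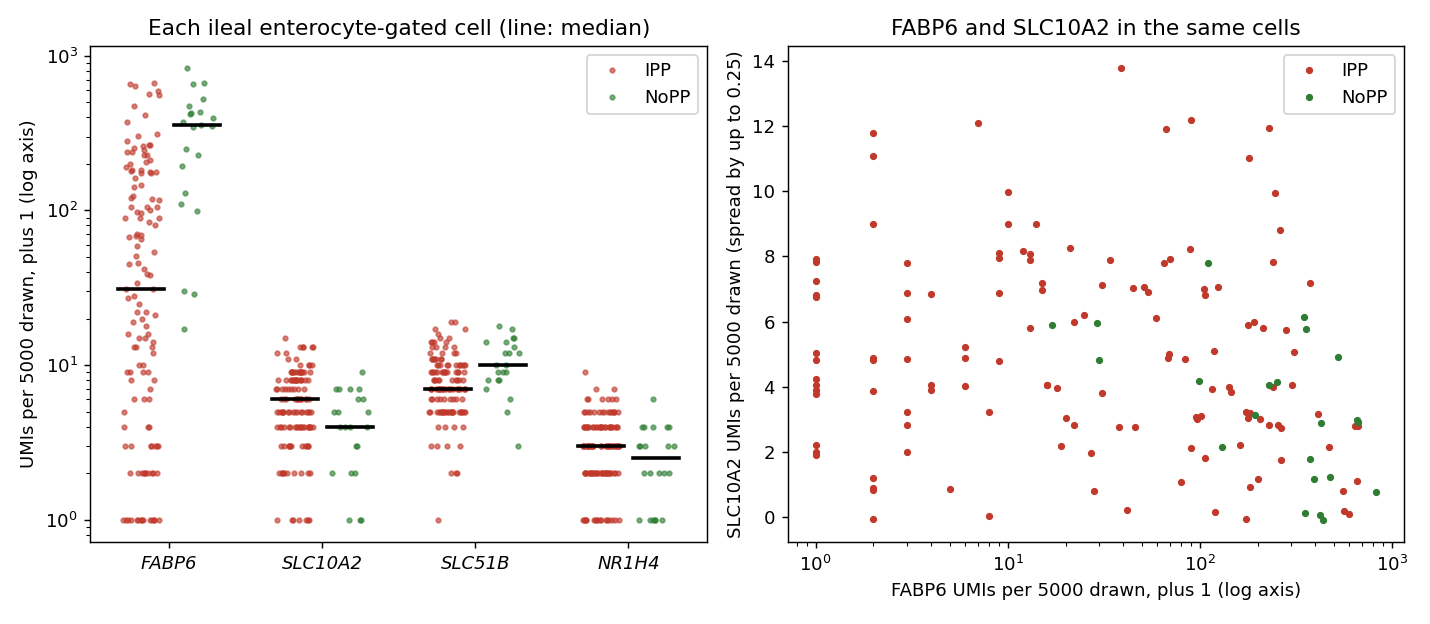
Left: UMIs per 5000 drawn, plus 1 (log axis), of FABP6, SLC10A2, SLC51B and NR1H4 in each enterocyte-gated cell of IPP (131 cells) and NoPP (22 cells), with medians as bars. Right: SLC10A2 (spread slightly for display) against FABP6 plus 1 in the same cells, where IPP cells span 0 to 662 FABP6 UMIs and NoPP cells 16 to 827.

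Across cells FABP6 did not follow SLC10A2. Spearman's rho between them was -0.16 over the 131 IPP cells and -0.55 over the 22 of NoPP, given as a description of cells that share 1 library. For SLC51B it was 0.36 and 0.47, for SLC51A -0.21 and 0.03 and for NR1H4 0.27 and -0.22. Pairs of members without FABP6 ranged from -0.17 to 0.20 in IPP. In counts this sparse such weak values are no finding.

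Genes of the fixed marker lists were set beside FABP6 in the same cells, a split by the place of the protein that was chosen after seeing the data. FABP6 went with cytosolic and cytoskeletal products: rho was 0.75 in IPP and 0.93 in NoPP for the keratin gene KRT8, 0.58 and 0.64 for KRT20, 0.61 and 0.54 for the lectin gene LGALS4, 0.61 and 0.51 for the retinol binder RBP2, and 0.44 and 0.54 for FABP1. All 4 enterocyte genes of cytosolic proteins were positive in both regions. Of the 13 for secreted or membrane proteins 10 were negative in IPP and 13 in NoPP, led by the lipoprotein genes APOB (-0.53 and -0.63) and APOA1 (-0.42 and -0.70). The median of the 13 was -0.38 in NoPP but -0.05 in IPP, where the sign of so weak a value is no finding. For the 6 membrane proteins of the epithelial list the sign differed between regions: rho was negative for all 6 in IPP, at -0.17 to -0.03, and positive for 4 in NoPP, with a median of 0.06. In the secreted or membrane group of the enterocyte list, SI, a brush border disaccharidase, was positive in IPP at 0.58, ANPEP at 0.28 and CDHR5 at 0.02. The same genes were at -0.16, -0.39 and -0.41 in NoPP. Ribosomal protein share moved with FABP6 as well (0.45 and 0.59), while depth before thinning (0.17 and 0.19) and mitochondrial share (-0.03 and -0.41) did so less or unevenly. The part of these shares in the pattern was not tested.

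**Figure D5:**
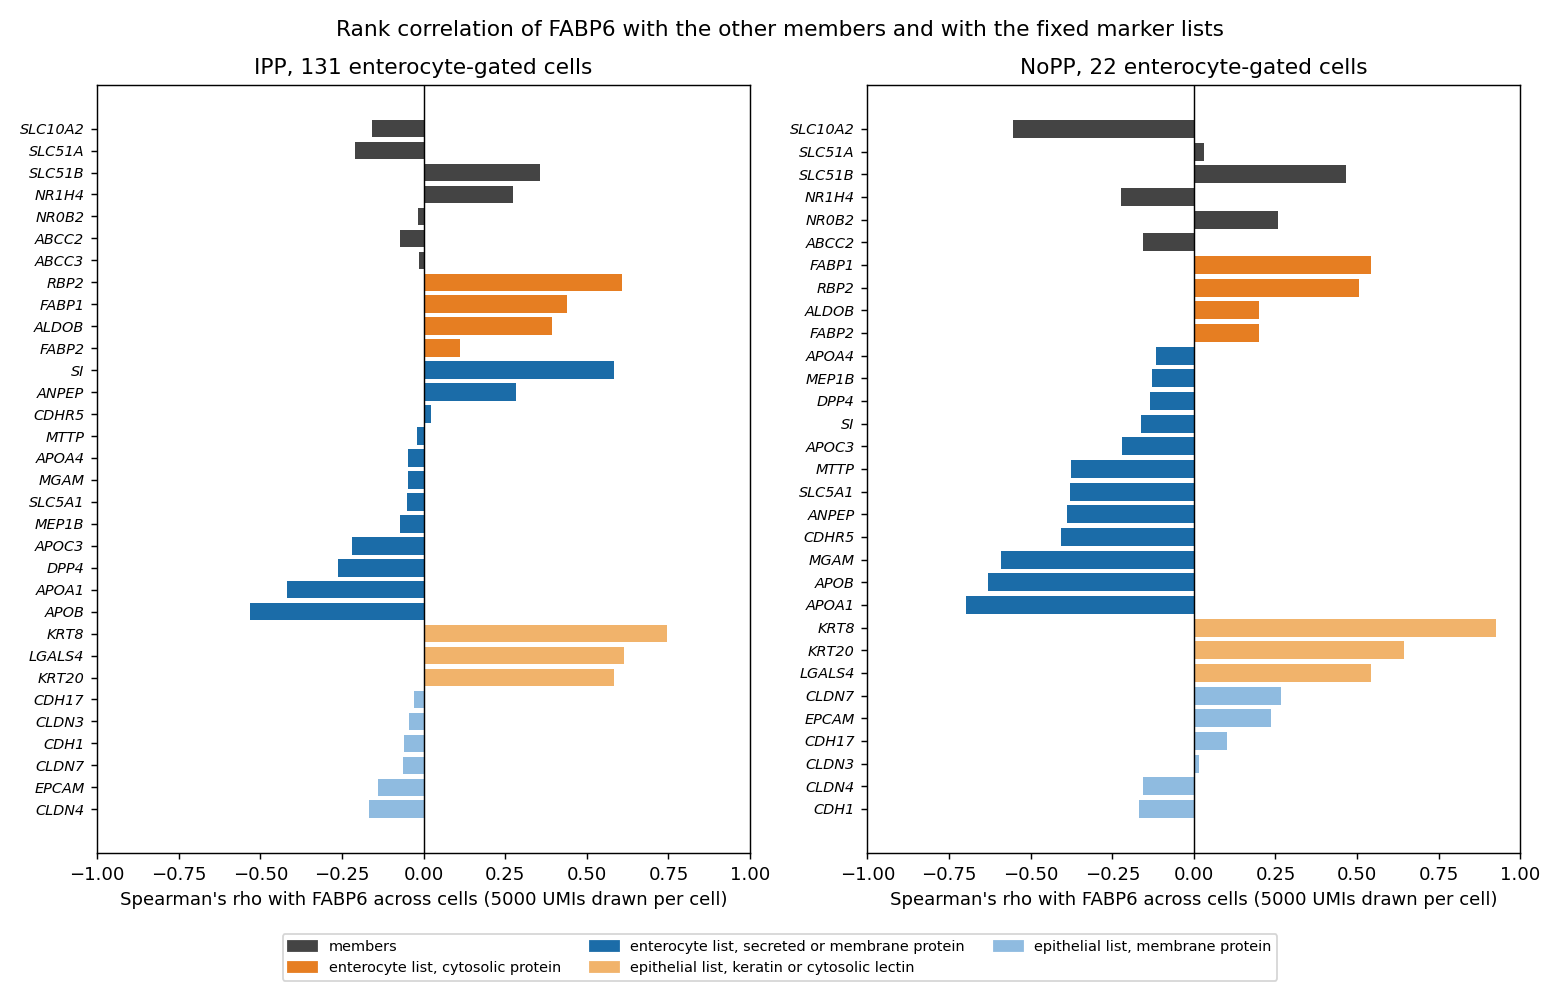
Spearman's rho of FABP6 with the other members and with genes of the fixed enterocyte and epithelial lists (bars) across enterocyte-gated cells of IPP (left) and NoPP (right), at 5000 UMIs per cell, coloured by the place of the protein; 1 gene of the secreted or membrane group is not drawn. Cytosolic and keratin genes are positive in both regions, and the drawn secreted or membrane genes of the enterocyte list are mostly negative in IPP and all negative in NoPP.

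A position along the villus could not be read for the members. Cells were to be ranked by villus top against villus base genes, but at 2000 UMIs 161 of 179, 124 of 151, 136 of 139 and 22 of 24 cells had UMIs of top genes only, so most cells tied.

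Genes with the most similar pattern were sought over 19 sums of region and class with at least 20 cells, among 9257 genes, by Pearson's r of log2(CPM + 1). For SLC10A2 these were CPO (0.98), SULT1E1 (0.96), TMIGD1 (0.95), CUBN (0.94) and DPEP1 (0.92), and for FABP6 they were SLC10A2 (0.92), CUBN (0.90), SLC13A1 (0.89), SULT1E1 (0.89) and OSR2 (0.88). The exporter subunits had other nearest genes, SLC51A having AMN (0.96), ADTRP (0.96), ENSSSCG00000023546 (0.96) and SLC7A9 (0.95), and SLC51B having ENSSSCG00000010792 (0.97), ANPEP (0.96), ACY1 (0.96), MME (0.95) and SLC7A9 (0.95). NR1H4 was nearest to SLC1A1 (0.96), NAALADL1 (0.93), ASS1 (0.93), AADAC (0.92) and RHOU (0.91). NR0B2 was nearest to a different set, RNF43 (0.93), SMIM31 (0.91), OVOL1 (0.91), CIDEC (0.90) and DGAT2 (0.90), and ABCC2 to SRXN1 (0.86), APOA1 (0.86), ALDH1A1 (0.86), NECAP1 (0.85) and HTATIP2 (0.84). These sums share libraries and free RNA, and the values describe likeness over them. ANPEP and APOA1 are markers of the enterocyte gate that formed the sums, so the gate itself favours their rise in enterocyte-gated sums.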

How the data were processed

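Droplet libraries (10x Chromium 3' version 3 chemistry) of epithelium released with dithiothreitol and EDTA were counted by the authors. The deposited files hold raw UMI counts made with Cell Ranger 4, per the file headers (4.0.6 per the submitters' processing notes). The build is not given in the sources used here. No coordinates are therefore given. Of 25880 genes 17733 had a symbol in the files, 977 took one from the gene name table and 7170 had none. Matrices held 64364750 (JEJ), 65583520 (IPP), 44726845 (NoPP) and 91813234 (DUOD) UMIs. Barcodes above 1000 UMIs mostly exceeded the mitochondrial limit (8873 of 9635, 7960 of 8984, 8452 of 11781 and 6571 of 8886 from DUOD to NoPP).

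A cell was epithelial with at least 3 epithelial markers and under 3 immune markers. It was then enteroendocrine-gated with at least 5, goblet-gated with at least 6 or BEST4-gated with at least 4 markers of that list, and otherwise enterocyte-gated with at least 100 enterocyte marker UMIs per 10000. Of the enterocyte-gated cells 0, 7, 5 and 3 lay under 150 per 10000, and 3, 5, 4 and 5 other epithelial cells had 50 or more. Immune cells were T or innate lymphoid-gated with at least 5 and B-gated with at least 3 markers. Cells with both lineages (35, 42, 140 and 58) were left out as likely doublets, and a doublet score was an alternative. UMIs were summed per class and scaled to CPM. Intervals are exact Poisson, exact conditional (ratios) and Clopper-Pearson (shares), and cover counting error only. A count of 0 was set to 3 UMIs per class, giving a bound. The ratio code was tested on simulated data.

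The members and gene lists were chosen with earlier results of these data known. Named are the members, pathway genes with at least 5 CPM and a 2-fold ratio whose interval excludes 1, and the 5 most similar genes of each member with at least 100 UMIs (genes with at least 200 UMIs compared). HNF4A, RXRA, FGF19 and CYP7A1 were named after their values were seen, and 2 genes that the rule names are not reported here. Versions were Python 3.11.15, NumPy 2.4.6, SciPy 1.17.1, pandas 2.3.3, scikit-learn 1.9.0 and Matplotlib 3.10.9.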

Additional observations from a re-analysis of the deposited data

Results flagged for a closer look

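Barcodes over the mitochondrial limit of 25% were outside the comparisons but carried the ileal signal. Among those with the enterocyte gate, 317 in IPP and 88 in NoPP, at a median of 52.7% and 49.3% mitochondrial UMIs, FABP6 stood at 9398 CPM and 17649 CPM. In the 1062 of DUOD and 1458 of JEJ it was at 2.01 and 5.58 CPM. With mitochondrial genes taken out of the total, FABP6 in these barcodes was 17741 CPM in IPP, beside 26192 in the kept cells, and 33253 in NoPP, beside 80925, while SLC10A2 was at 1352 beside 1304 and 892 beside 875. SLC51B was at 1107 CPM in IPP and 935 in NoPP there, the reverse order of the kept cells at 1744 and 2045. NR0B2 was again low in the ileum there, at 66.2, 59.4, 2.36 and 5.12 CPM from DUOD to NoPP on the same scale. ABCC2 was higher than in kept cells in all 4 regions, at 266, 205, 84.8 and 71.7 beside 122, 88.0, 69.7 and 19.3 CPM.

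NR0B2 changed sides between cell classes along the gut. Its level in enteroendocrine-gated cells over enterocyte-gated cells was 0.0226 (DUOD), 0.180 (JEJ), 9.03 (IPP) and 7.46 (NoPP). Every upper region lay under 1 and every ileal region over it, but the NoPP interval (0.959 to 336) includes 1. This difference between regions was not tested. The enteroendocrine-gated cells held 1, 3, 9 and 7 NR0B2 UMIs, and the enterocyte-gated cells 5 in IPP and 1 in NoPP.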

How the results depend on the processing

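No paired analysis was possible because the replicate numbers of the titles are not carried into the pooled matrices, and for the same reason no replicate could be left out. Counts of members at least 2-fold apart changed as follows. At a mitochondrial limit of 10%, which leaves 73, 105, 12 and 5 enterocyte-gated cells from DUOD to NoPP, JEJ over DUOD had 2 higher and 0 lower, NoPP over JEJ 2 higher and 0 lower, and IPP over NoPP 3 higher and 0 lower. The log2 ratios then turned for SLC51A (-0.065), SLC51B (-0.78), NR0B2 (1.57) and ABCC2 (2.59) in NoPP over JEJ and for ABCC2 in IPP over NoPP (-3.28), those of NR0B2 and ABCC2 with 0 UMIs in NoPP set to the limit. Fewer cells come with this limit, and the cause was not tested. For JEJ against DUOD the members lower were 2 without mitochondrial, ribosomal and the 10 highest genes in CPM, 2 with the mean of the cells' own CPM, 0 with an enterocyte gate at 2 times the marker share, 0 without the cell with most UMIs of each gene, where FABP6 turned to a log2 ratio of 0.63, and 3 (FABP6, SLC10A2 and ABCC3) with barcodes of 1000 UMIs elsewhere left out, a setting added after seeing the data. With shared barcodes kept (140 NoPP enterocyte-gated cells), 1 member was lower in NoPP than JEJ and 2 in IPP than NoPP. Cells with the whole route were 27.1% in IPP and 16.7% in NoPP at 2000 UMIs and 82.4% in IPP unthinned. The villus parts of DUOD gave 1 member 2-fold apart with 2 parts. The other 121 counts and shares kept within 1.5 times or their interval. Of the single values 341 moved by less than their interval, 57 by more and 6 turned. NoPP rests on 27 cells, which limits ABCC2, ABCC3 and NR0B2 there.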
